A study of Rattus norvegicus with 30 samples.

Results

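This account concerns how the effect of 8 µM WY-14643 on cultured rat hepatocytes depended on time. For each gene the difference between 8 µM and vehicle wells at 24 h was subtracted from the same difference at 48 h, on log2(signal + 16), and the result is called the time difference. A positive value means that the effect lay further up at 48 h, and a negative value that it lay further down. The comparison uses 20 of the 30 arrays of the series, n = 5 wells in each of 4 groups, which were 8 µM for 48 h, vehicle for 48 h, 8 µM for 24 h and vehicle for 24 h. The vehicle is labelled 1% DMSO. Concentrated stocks of the compound were made up in 1% DMSO as well, and the labels do not settle how much DMSO the treated medium held. All groups hold hepatocytes of male Sprague Dawley rats that were bought frozen, thawed, plated on collagen, overlaid with Matrigel and dosed on day 3 of culture. Each array is 1 culture well. The labels do not say whether wells held cells of different animals, so errors and p-values measure the spread between wells. The arrays of 200 µM wells, also 5 at each time, entered the fit and are compared at the end.

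WY-14643, also called pirinixic acid, is a synthetic agonist of PPARα, the nuclear receptor through which fatty acids control genes of their own breakdown. PPARα pairs with the retinoid X receptor and binds spaced repeats of a short DNA motif near genes of fatty acid transport, mitochondrial and peroxisomal oxidation and ketone body formation. In rodent liver its agonists multiply peroxisomes, and hepatic PPARα activity is also known for lower transcripts of acute phase and clotting proteins.

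1 array stood apart. On array number 22, the fourth 48 h vehicle well, the median signal of a probe set was 764, against 383.5 to 439 on the 29 others, and its median correlation with its own group was 0.896, against 0.973 to 0.980. Its group is the baseline at 48 h, so the main results are given with and without it. The 8 fixed hepatocyte markers were above the signal filter (281) on all 20 arrays. Of 7 macrophage markers with a probe set 4 were above the filter on all 20 arrays and Adgre1 on none. The summed signal of the 7 was 15894 to 19037 in 48 h 8 µM wells, 21608 to 25990 in 48 h vehicle wells, 22294 to 24939 in 24 h 8 µM wells and 27688 to 31802 in 24 h vehicle wells. That of the 8 hepatocyte markers was 308179 to 354620, 278590 to 401129, 337987 to 371969 and 367406 to 435296 in that order. Its medians, at 328064, 361455, 356502 and 402923, were also lower with 8 µM at both times. Of 6 stellate markers Des and Reln were above the filter on all 20 arrays and Lrat on none. Of 4 bile duct markers Epcam was above it on all 20 and Krt7 on none, and of 5 endothelial markers Kdr and Lyve1 were above it on all 20. On the lists of macrophage, stellate, endothelial and bile duct genes 0 of 11, 9, 7 and 3 measured genes had a called time difference with all arrays in limma's fit (1 macrophage gene without array number 22). In that fit of all arrays 2, 1, 0 and 0 had an unadjusted p under 0.05, beside 879 positive and 800 negative of 11545 genes. For β-actin, the signal at the 3′ end over that at the 5′ end, a measure of RNA length and labelling, was 3.26 ± 0.417 (SD, n = 5) in 48 h 8 µM wells, 2.61 ± 0.313 in 48 h vehicle wells, 3.10 ± 0.214 in 24 h 8 µM wells and 2.86 ± 0.278 in 24 h vehicle wells. For GAPDH this ratio was 1.154 ± 0.0281, 1.178 ± 0.0434, 1.145 ± 0.0406 and 1.194 ± 0.0212 in that order, so its mean was lower with 8 µM at both times. The part of the marker signals and of these ratios in the results was not tested.

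The effect of 8 µM differed between 48 h and 24 h for a small share of the genes. Genes of lipid synthesis and fatty acid binding were among those with a positive time difference, and genes of lipid droplets lay on both sides. Acute phase proteins, Il1r2, Npy and Cyp2c11 were among those with a negative time difference. Of 11545 genes, 335 had a time difference with an adjusted p under 0.05 (2.90%), by limma's moderated test with Benjamini-Hochberg adjustment over all genes. These are termed called. The difference was positive for 193 (1.67%) and negative for 142 (1.23%). For comparison, the effect of 8 µM itself was called for 4112 genes at 48 h (35.6%) and for 2870 at 24 h (24.9%). Over all genes the median time difference was -0.01. Among called genes 66 positive and 81 negative differences were at least 1.5-fold, and 17 and 31 at least 2-fold. Without array number 22 there were 270 positive and 312 negative calls (2.34% and 2.70%, 5.04% in all), so the share of positive ones among calls was 46.4%, against 57.6% with it. In both fits 191 genes were called positive and 140 negative. After centring each array on its median, which raised the median over all genes to 0.147, 34 positive and 8 negative calls were left, 81.0% positive. Median centring without array number 22 gave a median of -0.019 and 153 positive and 217 negative calls, 41.4% positive.

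**Figure D1:**
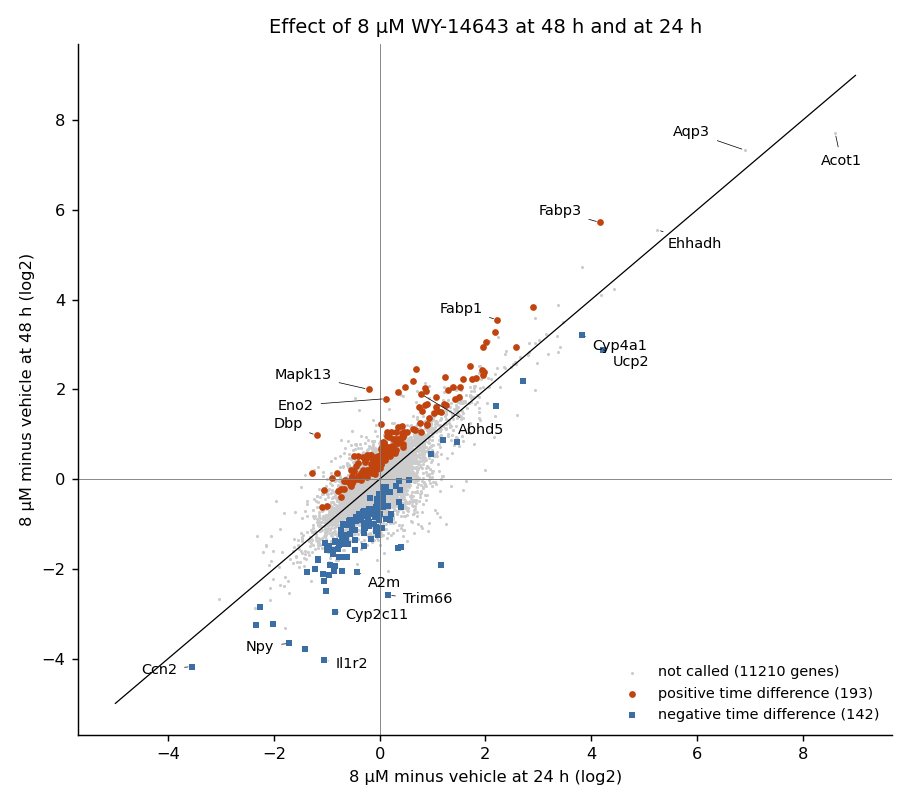
Effect of 8 µM WY-14643 at 48 h (vertical axis) against that at 24 h (horizontal axis), as log2 differences from the vehicle wells of the same time, for 11545 genes. Circles mark the 193 genes with a positive time difference, squares the 142 with a negative one, small points the rest, and the diagonal line equal effects. Acot1, Aqp3 and Ehhadh, far up the diagonal, were not called.

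Positive time differences were of 3 main kinds. In 71 of 193 genes the transcript was called up at both times and further up at 48 h (beside 16.7% and 11.1% of all genes up at 48 h and at 24 h), and in 77 it was up at 48 h with no call at 24 h. In 32 genes a fall at 24 h was no longer called at 48 h, in 4 a fall became smaller, and in 8 the transcript was up at 48 h and down at 24 h. The remaining gene, Ccnl2, was called at neither time. On the negative side 77 of 142 were called down at both times and further down at 48 h (beside 18.9% and 13.8% of all genes down at 48 h and at 24 h), and 52 were down at 48 h with no call at 24 h. A rise became smaller in 7 genes and was no longer called at 48 h in 4, and 2 genes, Il4r and Ppp6r1, were down at 48 h and up at 24 h. So 148 positive and 129 negative calls belong to effects that were larger or first called at 48 h. For Ppp6r1 another probe set had effects of -0.006 at 48 h and -0.08 at 24 h (time difference 0.07, limma, adjusted p = 0.82). Without array number 22 the 270 positive calls held 108 larger rises, 97 rises called only at 48 h, 38 lost falls, 15 smaller falls, 11 changes of direction and 1 gene called at neither time. The 312 negative ones then held 166 larger falls, 105 falls called only at 48 h, 14 smaller rises, 20 lost rises and 7 changes of direction. In that fit 16.8% of all genes were up and 20.2% down at 48 h (37.0% in all), and 13.7% up and 17.1% down at 24 h (30.7% in all). A call at 1 time and none at the other is a description here, since only the time difference itself was tested.

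Fabp1, the liver fatty acid binding protein and a classical PPARα target, was raised at 24 h and further raised at 48 h. Its promoter is shown because it holds a spaced repeat of the type PPARα binds. The 300 bases are from RefSeq (GRCr8, chr4:104749090-104749389, plus strand, 250 bases before to 50 after the start), and the capitals mark the only match to a direct repeat of the half-site AGGNCA (N for any base) with 1 base between its copies, searched on both strands, which lies on the minus strand and starts at base -77.
Fabp1: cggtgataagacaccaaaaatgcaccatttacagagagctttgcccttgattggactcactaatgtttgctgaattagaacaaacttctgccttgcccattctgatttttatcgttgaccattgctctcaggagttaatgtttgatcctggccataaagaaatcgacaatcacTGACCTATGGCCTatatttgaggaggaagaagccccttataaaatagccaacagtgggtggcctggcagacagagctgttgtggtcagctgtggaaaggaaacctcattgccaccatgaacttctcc
Of 27457 promoters of that length 113 hold such a repeat (0.412%). It occurs in 2 of 162 promoters of genes with a positive time difference, those of Fabp1 and Cyp2d3, and in 1 of 115 on the negative side, that of Pcolce. The stricter repeat of AGGTCA with the same spacing occurs in 16 promoters (0.0583%) and in 0 of the called genes' promoters. A match is a description of letters in this window and not a site.

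Fabp1 signals were 78706, 87585, 80022, 74845 and 83609 in 48 h 8 µM wells, against 7547, 6872, 6883, 5295 and 8131 in 48 h vehicle wells. At 24 h they were 49452, 52424, 51104, 50826 and 60495 in 8 µM wells, against 11969, 10744, 11850, 10364 and 11715 in vehicle wells. No 2 of the 4 groups overlapped, and the treated signal was higher and the vehicle signal lower at 48 h. The effect was 3.55 at 48 h and 2.22 at 24 h, a time difference of 1.33 ± 0.12 (SE, adjusted p = 7.1e-09, and 1.24 without array number 22). Of that, 0.62 came from the change with time in 8 µM wells and the rest from a change of -0.72 in vehicle wells, and both changes were called.

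**Figure D2:**
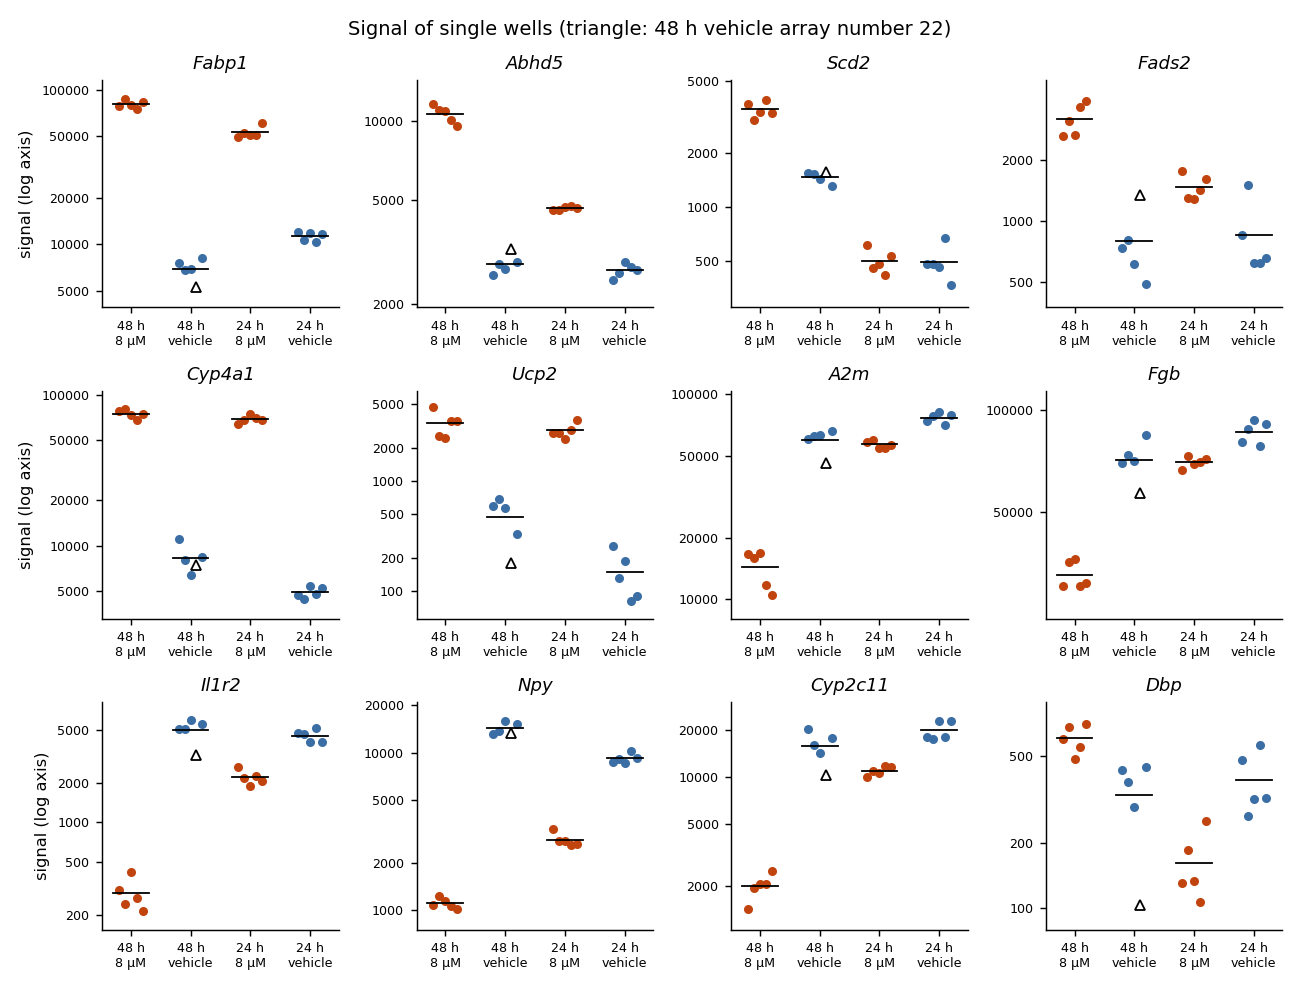
Signal of every well for 12 genes on log axes, with 48 h 8 µM, 48 h vehicle, 24 h 8 µM and 24 h vehicle wells from left to right. Circles are single wells, triangles array number 22, and bars the means of 5 wells. The 48 h 8 µM wells stand apart from the other 3 groups for Fabp1, Abhd5, Scd2 and Fads2, which are high there, and for A2m, Fgb, Il1r2, Npy and Cyp2c11, which are low there.

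Fabp3, the heart form of the same protein family, gave 14317, 15993, 15607, 15350 and 13412 in 48 h 8 µM wells, against 264, 426, 487, 235 and 99.8 in 48 h vehicle wells. At 24 h the signals were 2831, 3191, 3115, 3135 and 3592 in 8 µM wells, against 359, 115.5, 122, 232 and 87.4 in vehicle wells. The treated wells of the 2 times did not overlap, while the vehicle wells did and most of their signals were below 281. Its time difference was 1.56 ± 0.37 (adjusted p = 0.013). Of 17 measured genes of fatty acid uptake, binding or activation 5 were positive and 0 negative, beside 1.67% and 1.23% of all genes. The list median was 0.15 (0.09 without array number 22, when 5 were positive and 1 negative) against -0.01 over all genes. The 3 others were Fabp5 (0.55 ± 0.14), the acyl-CoA synthetase Acsl3 (0.50 ± 0.14) and Acss2, which activates acetate (0.46 ± 0.10). Acss2 was down at 24 h (-0.50) and at -0.04 (adjusted p = 0.68) at 48 h. The call of Acsl3 ended with any 1 of 10 arrays left out (adjusted p up to 0.073).

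Abhd5 encodes CGI-58, the protein that switches on the triglyceride lipase of lipid droplets. Its signal was 11608, 11041, 10966, 10082 and 9605 in 48 h 8 µM wells, against 2598, 2846, 2721, 3241 and 2905 in 48 h vehicle wells. In 24 h 8 µM wells it was 4601, 4580, 4711, 4766 and 4675, against 2473, 2637, 2902, 2781 and 2704 in 24 h vehicle wells. The vehicle groups overlapped and the treated groups did not, and the 24 h 8 µM wells differed by little. Abhd5 thus had a time difference of 1.10 ± 0.09 (adjusted p = 4.6e-10), with a change with time of 1.19 in 8 µM wells and of 0.08 (adjusted p = 0.47) in vehicle wells, and its other probe set was at 1.38 ± 0.19. Of 18 genes of lipid droplets and lipolysis, 2 were positive and 1 negative, beside 1.67% and 1.23% of all genes. The list median was 0.13 (0.04 without array number 22, when 2 were positive and 3 negative). Pnpla3, a lipase of the same family as the droplet lipase, was down at 24 h (-0.90) and at 0.03 (adjusted p = 0.90) at 48 h, a time difference of 0.93 ± 0.21, and its 2 other probe sets were at 1.01 and 0.13 and did not pass. Lipe, hormone-sensitive lipase, was the negative one, at -1.14 ± 0.27 (adjusted p = 0.013).

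Aqp7, a channel that lets glycerol through the membrane, gave 19338, 21784, 20345, 21911 and 23684 in 48 h 8 µM wells, against 2521, 2374, 2712, 3403 and 2954 in 48 h vehicle wells. The 24 h signals were 7600, 8021, 8883, 7599 and 7492 in 8 µM wells, against 2173, 1885, 1841, 2199 and 2002 in vehicle wells. The 4 groups were separate, and the treated wells moved most between the times. With 0.98 ± 0.11 (adjusted p = 2.0e-07) it was 1 of 2 positive genes among 16 of glycerol and glucose metabolism, beside 1.67% of all genes. The other was Ppp1r3b, a glycogen-targeting subunit of protein phosphatase 1, at 0.60 ± 0.15, whose call ended with any 1 of 4 arrays left out (adjusted p up to 0.059). Aqp9, the main glycerol channel of rat hepatocytes, went the other way at -0.77 ± 0.14 (adjusted p = 7.5e-04) and was down at both times (-1.55 at 48 h and -0.78 at 24 h).

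Lipogenesis and triglyceride synthesis was the list with the most positive calls. Of 19 measured genes 10 had a positive time difference and 0 a negative one, beside 1.67% and 1.23% of all genes, and the list median was 0.44 (0.36 without array number 22, when again 10 were positive). After median centring 2 were called, Scd2 and Fads2, and after median centring without array number 22 8 were called, all positive, with a list median of 0.34. The desaturases Scd2 and Fads2 led the list, followed by another desaturase, Fads1, which makes polyunsaturated fatty acids (0.81 ± 0.18). The other called genes were malic enzyme Me1, a source of NADPH (0.70 ± 0.16), the desaturase Scd (0.48 ± 0.11), the acyltransferases Gpam (0.48 ± 0.13), Agpat2 (0.44 ± 0.09) and Dgat2 (0.26 ± 0.07), the citrate lyase Acly (0.47 ± 0.12) and the lipogenic regulator Thrsp (0.46 ± 0.11). Acly differed from the rest in being down at 24 h (-0.68) and at -0.21 (adjusted p = 0.053) at 48 h. The calls of Acly, Dgat2, Fads2 and Gpam ended with any 1 of 4, 9, 9 and 12 arrays left out, with adjusted p up to 0.074, 0.076, 0.072 and 0.094 in that order. Fatty acid synthase Fasn (0.63 ± 0.20, adjusted p = 0.097), the carboxylase Acaca (0.34, adjusted p = 0.26), the elongase Elovl6 (adjusted p = 1.0) and the transcription factor Srebf1 (0.22, adjusted p = 0.60) did not pass.

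Scd2, a stearoyl-CoA desaturase, had no effect call at 24 h. Its promoter is shown for its CCAAT boxes, a common element of promoters of lipid synthesis genes (RefSeq, GRCr8, chr1:253118127-253118426, plus strand). The capitals mark both matches to CCAAT, searched on both strands, at bases -97 and -54.
Scd2: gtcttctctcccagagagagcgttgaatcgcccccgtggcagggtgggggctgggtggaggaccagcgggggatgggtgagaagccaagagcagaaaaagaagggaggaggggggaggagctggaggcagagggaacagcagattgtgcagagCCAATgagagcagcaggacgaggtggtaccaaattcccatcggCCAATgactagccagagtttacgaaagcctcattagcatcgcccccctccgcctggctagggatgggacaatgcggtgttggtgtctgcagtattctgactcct
CCAAT is frequent and was chosen after the values were seen. It occurs in 37.7% of the 27457 promoters, in 10 of 16 of the lipogenic list (62.5%), in 41.4% of genes with a positive time difference and in 46.1% of those with a negative one.

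Signals of Scd2 were 3707, 3050, 3373, 3916 and 3298 in 48 h 8 µM wells, against 1532, 1525, 1428, 1558 and 1304 in 48 h vehicle wells. At 24 h they were 613, 455, 481, 416 and 531 in 8 µM wells, against 479, 482, 463, 675 and 366 in vehicle wells. The 24 h groups overlapped fully and the 48 h groups not at all, and both arms were higher at 48 h. The change with time was 2.76 in 8 µM wells and 1.57 in vehicle wells, a time difference of 1.20 ± 0.18 (adjusted p = 4.6e-05). This rests on 1 probe set, since its 2 others were at 0.09 and 0.02 and the mean of all 3 did not pass (0.44, adjusted p = 0.35). Fads2, the Δ6 desaturase, gave 2608, 3087, 2656, 3652 and 3877 in 48 h 8 µM wells, against 735, 809.8, 616, 1344 and 491 in 48 h vehicle wells. After 24 h the signals were 1759, 1301, 1285, 1416 and 1611 in 8 µM wells, against 851, 1501, 624, 623 and 659 in vehicle wells, and 1 vehicle well lay among the treated ones. Fads2 had a time difference of 1.18 ± 0.32 (adjusted p = 0.033), and of 1.38 (adjusted p = 0.0029) without array number 22, which was the highest 48 h vehicle well.

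Genes of fatty acid oxidation, the classical targets of PPARα agonists, were raised at both times. Of 21 genes of mitochondrial fatty acid oxidation 20 were up at 48 h and 19 at 24 h, beside 16.7% and 11.1% of all genes. Their time differences were small, with a median of 0.18 (0.08 without array number 22). Beside 1.67% of all genes, 5 of the 21 had a positive call. These were the acyl-CoA dehydrogenases Acad9 (0.49 ± 0.10), Acadm (0.43 ± 0.09), Acadvl (0.39 ± 0.07) and Acads (0.35 ± 0.09) and the trifunctional protein subunit Hadha (0.33 ± 0.09). Acadvl, which acts on very long chains, gave 21026, 22094, 21965, 20306 and 21998 in 48 h 8 µM wells, against 7015, 7261, 6389, 6145 and 7668 in 48 h vehicle wells. The 24 h wells gave 19018, 18133, 18590, 19174 and 20546 with 8 µM, against 8093, 8014, 8286, 7547 and 8079 in 24 h vehicle wells. Treated wells of the 2 times overlapped by 1 well and vehicle wells also by 1 well, so that this call (adjusted p = 0.0013) rests on small and opposite shifts of both arms. The calls of Acads and Hadha ended with any 1 of 5 and 12 arrays left out (adjusted p up to 0.061 and 0.089), and Hadha's other probe set was at -0.66 (adjusted p = 0.14). The carnitine palmitoyltransferases Cpt1a (0.002 ± 0.14, adjusted p = 1.0) and Cpt1b (0.50 ± 0.18, adjusted p = 0.15) did not pass, but Cpt1b did without array number 22 (0.65, adjusted p = 0.0098), when 6 of the 21 were called.

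Calls on the list of peroxisomal β-oxidation were positive only, beside 1.67% of all genes positive and 1.23% negative. Hao2, a peroxisomal oxidase outside the lists of this paragraph, was called in the negative direction at -0.93. Of 14 genes of peroxisomal β-oxidation 2 were called, Decr2, a dienoyl-CoA reductase (0.53 ± 0.11), and Hacl1, which shortens 2-hydroxy acids (0.37 ± 0.10), whose call ended with any 1 of 11 arrays left out (adjusted p up to 0.090). The list median was 0.25 (0.13 without array number 22). 0 of 15 peroxins and peroxisome proteins and 0 of 9 acyl-CoA thioesterases were called in the fit of all arrays or without array number 22, with medians of 0.19 and 0.16 (0.12 and 0.06 without it). At an unadjusted p under 0.05 in limma's fit of all arrays 3 peroxins and 2 thioesterases were positive and 0 negative. Over all 11545 genes 879 were positive and 800 negative at that threshold. Pex11a, which divides peroxisomes, had a time difference of 0.09 ± 0.09 (adjusted p = 0.72). Among 12 genes of ketogenesis and fasting 1 was positive, the thiolase Acat1 (0.35 ± 0.09), whose other probe set was at -0.01 and whose call ended with any 1 of 4 arrays left out (adjusted p up to 0.060), and 1 negative, Txnip.

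**Figure D3:**
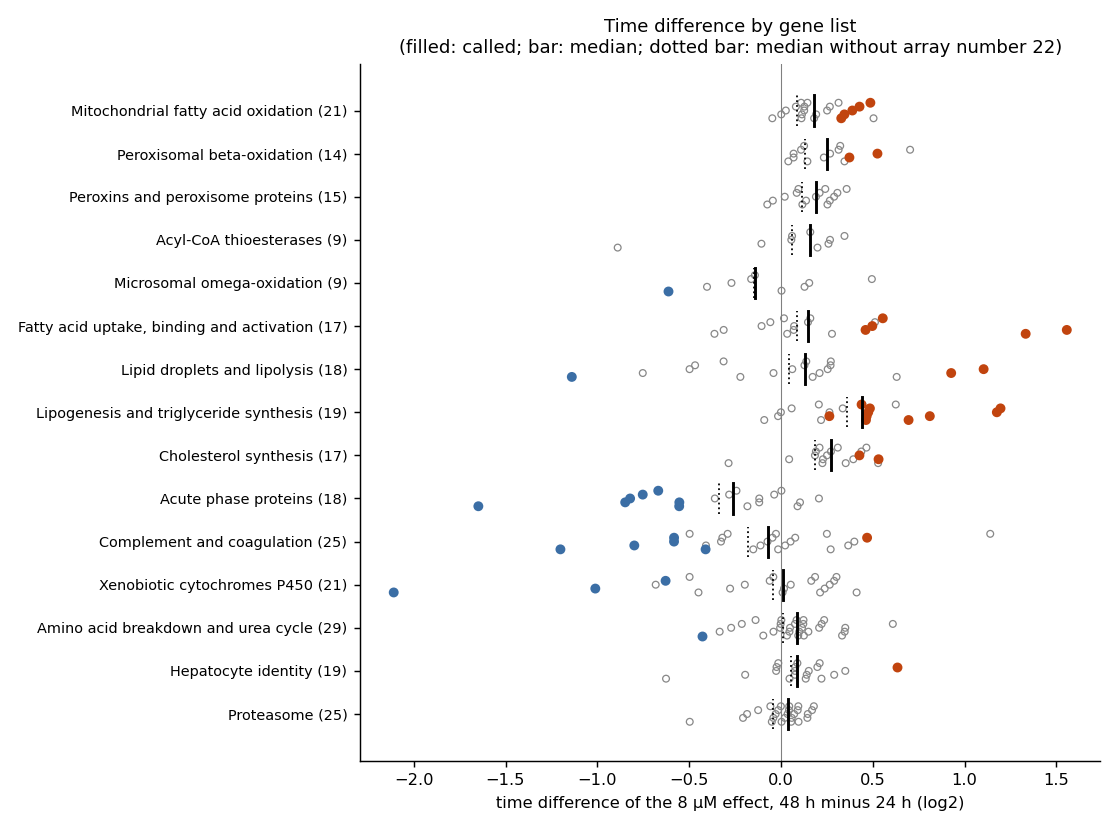
Time difference of each measured gene (log2, horizontal axis) by gene list, with the number of measured genes in parentheses. Filled points are called genes and open points the others, and solid and dotted bars are list medians with and without array number 22. Of the 15 lists drawn, lipogenic genes have the highest median with 10 called, and acute phase proteins the lowest with 7 called.

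The 10 largest rises at 24 h, picked by a value that enters the time difference with a minus sign, were still large at 48 h. 7 of these 10 had no called time difference, and the others had one, beside 2.90% of all genes. The thioesterase Acot1 had an effect of 7.73 at 48 h and 8.61 at 24 h, a time difference of -0.89 ± 0.57 (adjusted p = 0.51, and -1.35, adjusted p = 0.13, without array number 22). Its vehicle signals were 1624, 302, 127, 54.2 and 171 at 48 h and 172, 57.7, 122, 137 and 69.5 at 24 h, mostly below the filter. For Aqp3 the difference was 0.41 ± 0.33, for the bifunctional enzyme Ehhadh 0.31 ± 0.24, for the pyruvate dehydrogenase kinase Pdk4 0.03 ± 0.13, for Nim1k 0.90 ± 0.42, for Entpd1 -0.21 ± 0.50 and for Krt79 -0.09 ± 0.49. Pdk4 gave 49760, 47342, 45308, 47209 and 45850 in 48 h 8 µM wells, against 5905, 4400, 3914, 2962 and 4108 in 48 h vehicle wells, with 44422, 49074, 45349, 46123 and 45842 in 24 h 8 µM wells, against 4563, 3840, 4255, 3828 and 4358 in 24 h vehicle wells. Both arms of Pdk4 overlapped between the times. A missed threshold does not show equal effects, and the standard errors of Acot1, Entpd1, Krt79 and Nim1k were 0.42 to 0.57.

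Called genes among those 10 were Fabp3 and 2 whose rise was smaller at 48 h. Cyp4a1, which starts ω-oxidation of fatty acids, gave 78996, 80377, 74137, 68328 and 74730 in 48 h 8 µM wells, against 11123, 7984, 6422, 7471 and 8376 in 48 h vehicle wells. The 24 h signals were 64632, 68417, 74552, 70907 and 68888 in 8 µM wells, against 4680, 4458, 5417, 4752 and 5247 in vehicle wells. The treated wells overlapped between the times and the vehicle wells did not, being higher at 48 h. Cyp4a1 had a time difference of -0.62 ± 0.13 (adjusted p = 0.0034), with a change with time of 0.12 (adjusted p = 0.49) in 8 µM wells and of 0.73 (adjusted p = 4.6e-07) in vehicle wells. The uncoupling protein Ucp2 had 4695, 2547, 2478, 3537 and 3543 in 48 h 8 µM wells, against 599, 693, 564, 181 and 331 in 48 h vehicle wells. In 24 h 8 µM wells it had 2748, 2741, 2422, 2923 and 3619, against 259.5, 131, 187, 81.2 and 89.7 in 24 h vehicle wells. Again only the vehicle groups differed in level, with overlap, and the time difference was -1.35 ± 0.36 (adjusted p = 0.031, and -1.64, adjusted p = 6.6e-04, without array number 22). The call of Ucp2 ended with any 1 of 9 arrays left out (adjusted p up to 0.072).

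Txnip, an inhibitor of thioredoxin that follows glucose and fasting, differed from these in that the treated wells moved. Its signals were 23663, 24164, 22503, 21270 and 21122 in 48 h 8 µM wells, against 8056, 7345, 7555, 5701 and 7664 in 48 h vehicle wells. At 24 h they were 31475, 34068, 35390, 31896 and 33485 in 8 µM wells, against 6875, 6593, 7587, 7626 and 7414 in vehicle wells. Treated wells were all lower at 48 h and the vehicle wells overlapped, and the time difference was -0.56 ± 0.10 (adjusted p = 3.5e-04). Its relative Arrdc4, also an arrestin-domain gene, was at -0.72 ± 0.13 (adjusted p = 7.5e-04) and was down at both times. The other rises that were smaller at 48 h were those of Acsm5, Klhl25, Rab30 and Tns1 (-0.32 to -0.63), and those of Acsm5 and Klhl25 lost their call with any 1 of 14 and 9 arrays left out (adjusted p up to 0.085 and 0.073). Tns1 had another probe set at 0.62 (adjusted p = 0.38).

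Among genes that 8 µM lowered, Ccn2, connective tissue growth factor, had the largest fall at 24 h and a time difference of -0.62 ± 0.14 (adjusted p = 0.0078). Its signals were 833, 1007, 887, 1148 and 923 in 48 h 8 µM wells, against 18484, 18810, 18711, 14532 and 17637 in 48 h vehicle wells. After 24 h they were 929, 1092, 946, 1115 and 921 in 8 µM wells, against 13342, 11090, 12113, 11216 and 11916 in 24 h vehicle wells. The treated groups overlapped, and the vehicle groups, higher at 48 h, did not. Among 27 genes of dedifferentiation and matrix 3 were negative and 0 positive (median -0.02), beside 1.23% and 1.67% of all genes. The 3 were Ccn2, fibronectin Fn1 (-0.77 ± 0.10) and the calcium-binding S100a6. S100a6 gave 5425, 5577, 7595, 6374 and 4499 in 48 h 8 µM wells, against 27898, 29212, 30718, 22365 and 30652 in 48 h vehicle wells. It gave 12282, 11869, 12168, 11625 and 11472 in 24 h 8 µM wells, against 21472, 25605, 26208, 26945 and 24212 in 24 h vehicle wells. Here the vehicle groups overlapped and the treated wells were lower at 48 h, for a time difference of -1.20 ± 0.15 (adjusted p = 2.6e-06).

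Plasma protein transcripts made up the clearest group on the negative side. Of 18 measured acute phase proteins 7 had a negative time difference and 0 a positive one, beside 1.23% and 1.67% of all genes, with a list median of -0.26. Without array number 22 it was 9 of 18 and -0.34, with quantile normalization 13 and -0.35, and with median centring 1 and -0.10. Median centring without array number 22 gave 8 and -0.36. Of 25 genes of complement and coagulation 5 were negative and 1, C8a, positive (0.47 ± 0.13, its call ending with any 1 of 12 arrays left out, adjusted p up to 0.072). That list's median was -0.07 (-0.18 without array number 22, when 8 were negative and 2 positive) and was 0.09 with median centring, where 0 of its genes were called. With median centring and without array number 22 it was -0.20, with 7 negative and 0 positive calls. In bulk wells, fewer cells of a type and less RNA per cell cannot be told apart.

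A2m, α2-macroglobulin, a protease inhibitor of the rat acute phase, gave 16583, 15914, 16775, 11699 and 10484 in 48 h 8 µM wells, against 60608, 62866, 62993, 46053 and 66160 in 48 h vehicle wells. After 24 h the signals were 58572, 60081, 54901, 54453 and 56576 in 8 µM wells, against 74375, 77976, 81573, 70616 and 79050 in vehicle wells. All 48 h 8 µM wells lay far below the other groups, and the 24 h treated wells lay just below their vehicle wells. The effect was -2.08 at 48 h and -0.43 at 24 h, a time difference of -1.65 ± 0.15 (adjusted p = 8.9e-09). Fibrinogen β (Fgb) had 30274, 35542, 36214, 30138 and 30938 in 48 h 8 µM wells, against 69688, 73841, 70566, 56986 and 84374 in 48 h vehicle wells. The signals were 66456, 73091, 69337, 70362 and 71949 in 24 h 8 µM wells, against 80628, 87932, 93763, 78516 and 90970 in 24 h vehicle wells. Its pattern was the same, and the time difference was -0.82 ± 0.11 (adjusted p = 6.1e-06). Of the other fibrinogen chains, Fga was at -0.55 ± 0.12 (adjusted p = 0.0053) and Fgg at -0.18 ± 0.11 (adjusted p = 0.46, and -0.27, adjusted p = 0.040, without array number 22), and a difference between the chains was not tested.

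The other called acute phase proteins were ceruloplasmin Cp (-0.85 ± 0.13), which carries copper, Itih4 (-0.75 ± 0.11), the protease inhibitor Serpina3n (-0.67 ± 0.10) and the endotoxin-binding Lbp (-0.55 ± 0.14). All 7 were down at both times. Hrg, histidine-rich glycoprotein, gave 3919, 3985, 3965, 3250 and 4309 in 48 h 8 µM wells, against 26716, 22974, 21162, 15154 and 24516 in 48 h vehicle wells. It gave 14778, 15541, 16479, 16516 and 20081 in 24 h 8 µM wells, against 33458, 33146, 35130, 30995 and 34059 in 24 h vehicle wells. Both arms were lower at 48 h, with changes of -2.10 in 8 µM wells and -0.62 in vehicle wells, and the time difference was -1.48 ± 0.16 (adjusted p = 2.0e-07). Kng2l1, of the kininogen family, stood at -1.20 ± 0.15, with other probe sets at -0.73 (adjusted p = 2.2e-05) and 0.07 (adjusted p = 0.96). Complement C6 (-1.20 ± 0.25), Serpind1, which inhibits thrombin (-0.80 ± 0.21), C1s (-0.58 ± 0.12), C3 (-0.58 ± 0.14) and C9 (-0.41 ± 0.10) were the 5 negative complement and coagulation genes. The call of Serpind1 ended with any 1 of 5 arrays left out (adjusted p up to 0.067). Albumin (Alb, 0.14 ± 0.11, adjusted p = 0.61) and Hnf4a, a hepatocyte transcription factor (-0.02 ± 0.09, adjusted p = 0.94), did not pass.

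Il1r2, the decoy receptor for interleukin 1, had the largest negative value among genes called with and without array number 22. Its signals were 310.4, 242, 419.7, 269 and 214 in 48 h 8 µM wells, against 5117, 5139, 6009, 3260 and 5597 in 48 h vehicle wells. In 24 h 8 µM wells they were 2637, 2176, 1892, 2254 and 2053, against 4744, 4664, 4061, 5186 and 4098 in 24 h vehicle wells. Vehicle wells overlapped between the times, whereas treated wells were all lower at 48 h, and the effect was -4.04 at 48 h and -1.04 at 24 h. This is a time difference of -2.998 ± 0.24 (adjusted p = 4.2e-10). Spata19, at -3.09 ± 0.86, was not called without array number 22 (adjusted p = 0.061). The signalling receptor Il1r1 was at -0.27 ± 0.13 (adjusted p = 0.35). Npy, the neuropeptide Y transcript, gave 1082, 1238, 1139, 1071 and 1016 in 48 h 8 µM wells, against 13180, 13685, 15849, 13304 and 15152 in 48 h vehicle wells. At 24 h it gave 3283, 2730, 2752, 2595 and 2650 in 8 µM wells, against 8693, 9158, 8585, 10196 and 9241 in vehicle wells. The arms moved apart, with changes with time of -1.32 in 8 µM wells and 0.63 in vehicle wells, and the time difference was -1.95 ± 0.12 (adjusted p = 2.3e-13).

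Cytochromes P450 of the liver's drug metabolism were mixed. Of 21 genes 3 were negative and 0 positive, beside 1.23% and 1.67% of all genes. The list median was 0.01 (-0.04 without array number 22, when 5 were negative). Cyp2c11, the male-specific steroid hydroxylase of rat liver, gave 1410, 1924, 2040, 2058 and 2495 in 48 h 8 µM wells, against 20228, 15940, 14201, 10320 and 17802 in 48 h vehicle wells. At 24 h it gave 9983, 10815, 10540, 11717 and 11475 in 8 µM wells, against 17992, 17574, 22725, 17900 and 22825 in vehicle wells. The 48 h treated wells were far below every other well, and the time difference was -2.11 ± 0.21 (adjusted p = 3.3e-08). Cyp1a2, which oxidises caffeine and aromatic amines, gave 2219, 2254, 2662, 2099 and 2451 in 48 h 8 µM wells, against 7856, 7510, 8078, 6874 and 8801 in 48 h vehicle wells. It gave 9060, 9007, 9981, 10543 and 12046 in 24 h 8 µM wells, against 16702, 17035, 16027, 16505 and 17004 in 24 h vehicle wells. Transcripts of Cyp1a2 were lower at 48 h in both arms, and its time difference was -1.01 ± 0.11 (adjusted p = 4.0e-07). Cyp2c23, the third, stood at -0.63 ± 0.12 (adjusted p = 0.0018) and had no effect call at 24 h. In bile acid synthesis and transport, 1 of 16 genes was positive, Cyp8b1 (0.61 ± 0.17, its call ending with any 1 of 12 arrays left out, adjusted p up to 0.090), and 1 negative, the phospholipid exporter Abcb4 (-0.50 ± 0.11), against 1 and 3 without array number 22. Cyp7a1, which commits cholesterol to bile acids, was at 0.23 ± 0.31 (adjusted p = 0.79).

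Stress genes were called in both directions, beside 1.67% of all genes positive and 1.23% negative. Of 12 heat shock genes 2 were negative, the small chaperone Cryab and Hspa1a (-0.66 ± 0.11), and 1 positive, Hsph1 (0.50 ± 0.12), whose other probe set was at 0.02. Cryab gave 2902, 3338, 3540, 3926 and 2405 in 48 h 8 µM wells, against 14636, 14198, 14928, 8993 and 13813 in 48 h vehicle wells. It gave 3280, 3530, 3700, 2906 and 3238 in 24 h 8 µM wells, against 5036, 4815, 5902, 6327 and 5189 in 24 h vehicle wells. The treated groups overlapped fully and the vehicle wells were higher at 48 h, and the time difference was -1.33 ± 0.17 (adjusted p = 3.9e-06). Among 19 NRF2 and antioxidant genes 4 were positive and 0 negative (median 0.19, and 0.12 without array number 22), namely Hmox1, heme oxygenase (0.68 ± 0.12), Akr7a3 (0.59 ± 0.12), Akr1b8 (0.57 ± 0.15) and the glutathione synthesis subunit Gclc (0.49 ± 0.10). Akr1b8 lost its call with any 1 of 5 arrays left out (adjusted p up to 0.060). Of 26 genes of ER and amino acid stress, Psat1 (0.57 ± 0.13), Vldlr (0.52 ± 0.15) and Ddit3 (0.68 ± 0.19) were positive and Xbp1 negative (-0.35 ± 0.08). Ddit3 was not called without array number 22 (adjusted p = 0.059) or with any 1 of 16 other arrays left out, nor Vldlr with any 1 of 13 (adjusted p up to 0.11 and 0.10), and Vldlr's call also ended with the array run as a block (adjusted p = 0.061). 0 of 25 proteasome genes and 0 of 22 nuclear receptors and coregulators were called with all arrays, and 1 and 0 without array number 22. In limma's fit of all arrays 2 and 3 had an unadjusted p under 0.05, beside 879 positive and 800 negative of 11545 genes.

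Dbp, a clock-controlled transcription factor, was the strongest of the 8 genes that were up at 48 h and down at 24 h. Its signals were low, at 599, 684, 485, 554 and 701 in 48 h 8 µM wells, against 434, 382, 292, 103 and 444 in 48 h vehicle wells. At 24 h they were 131, 185, 133, 108 and 253 in 8 µM wells, against 482, 265, 318, 561 and 322 in vehicle wells. At each time the 2 groups did not overlap, and the treated wells stood above vehicle at 48 h and below it at 24 h. Dbp had an effect of 0.97 at 48 h and -1.19 at 24 h, a time difference of 2.17 ± 0.41 (adjusted p = 0.0013, and 1.82, adjusted p = 3.7e-04, without array number 22, the lowest 48 h vehicle well). No other of 16 clock genes was called, among them Per3 (1.16 ± 0.55, adjusted p = 0.33) and Tef, a relative of Dbp (0.28 ± 0.12, adjusted p = 0.27). The other 7 genes of this kind were Alas1, the first enzyme of heme synthesis (0.79 ± 0.12), Tfrc, the transferrin receptor (0.75 ± 0.13), Pik3c2g (0.93 ± 0.16), Rab40b (0.73 ± 0.10), Ubac1 (0.70 ± 0.12), Sf3b1 (0.45 ± 0.12) and Msrb1 (0.39 ± 0.08). Sf3b1 lost its call with any 1 of 5 arrays left out (adjusted p up to 0.062). Heme and iron are shared by Alas1, Tfrc, Hmox1 and Cpox, the heme synthesis enzyme at 0.42 ± 0.08 (adjusted p = 0.0019), a grouping made after their values were seen.

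Among genes outside these lists that were called with and without array number 22, the largest positive values were those of the kinase Mapk13 (2.21 ± 0.51), the phosphatase Ppm1j (1.76 ± 0.47), Eno2, neuronal enolase (1.67 ± 0.26), Pla2g4b (1.61 ± 0.46), Mmd (1.58 ± 0.44), Epb41l3 (1.54 ± 0.41), the non-muscle myosin Myh10 (1.40 ± 0.40), Spc24 of the kinetochore (1.10 ± 0.16) and ornithine aminotransferase Oat (1.09 ± 0.16). Eno2 gave 6869, 4252, 5696, 5024 and 3072 in 48 h 8 µM wells, against 1166, 1165, 1692, 1565 and 1371 in 48 h vehicle wells. In 24 h 8 µM wells it gave 1360, 1134, 1097, 1154 and 1579, against 1115, 1333, 876, 1456 and 1062 in 24 h vehicle wells. Every 48 h 8 µM well of Eno2 was above the wells of the other 3 groups, which overlapped. Mapk13 was near the floor of the array, at 404 ± 111 (SD, n = 5) in 48 h 8 µM wells, 87.8 ± 22.4 in 48 h vehicle wells, 80.9 ± 8.58 in 24 h 8 µM wells and 105 ± 61.0 in 24 h vehicle wells. After Il1r2 and beside Npy, the largest negative values of such genes were those of Trim66 (-2.75 ± 0.74), Prr15l (-2.39 ± 0.65), the axon guidance gene Slit1 (-1.92 ± 0.48) and Mapt, which encodes tau (-1.87 ± 0.50), all with group means of at most 869. Mapt had another probe set at 0.02 (limma, adjusted p = 0.99). The calls of Ppm1j, Pla2g4b, Mmd, Epb41l3, Myh10, Trim66, Prr15l and Mapt ended with any 1 of 9, 15, 17, 9, 14, 9, 10 and 5 arrays left out, with adjusted p up to 0.11, and that of Pla2g4b also with the array run as a block (adjusted p = 0.060).

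The change with time was then followed in each arm. In 8 µM wells 835 genes were higher and 711 lower at 48 h (7.23% and 6.16%, 13.4% in all), and in vehicle wells 515 were higher and 624 lower (4.46% and 5.40%, 9.87% in all). Leaving out array number 22 gave 1150 and 1073 in 8 µM wells (9.96% and 9.29%, 19.3% in all) and 697 and 536 in vehicle wells (6.04% and 4.64%, 10.7% in all), and after median centring of all arrays 277 and 215 in 8 µM wells and 90 and 210 in vehicle wells. Of the 193 genes with a positive time difference 146 rose with time in 8 µM wells and 46 fell in vehicle wells, 10 of them both, and 125 rose in 8 µM wells with no vehicle call. Of the 142 negative ones 103 fell with time in 8 µM wells and 47 rose in vehicle wells, 10 of them both, and 65 fell in 8 µM wells with no vehicle call. The absolute change was larger in 8 µM wells than in vehicle wells for 141 of 193 and 98 of 142. Without array number 22 it was larger for 192 of 270 and 206 of 312. How often this held over all genes was not counted. In 35 positive and 34 negative genes only the vehicle arm was called, and Cyp4a1, Ucp2, Ccn2 and Cryab are among the negative ones. Leaving out array number 22 made this 57 of 270 and 77 of 312. Afm, afamin, a carrier of vitamin E made by hepatocytes, shows a fall in both arms of unequal size. It gave 6104, 7326, 6022, 5800 and 6878 in 48 h 8 µM wells, against 3331, 3286, 3563, 3269 and 3790 in 48 h vehicle wells. At 24 h it gave 9714, 10539, 10201, 10196 and 11586 in 8 µM wells, against 8196, 9289, 8911, 7764 and 9515 in vehicle wells. Its change with time was -0.70 in 8 µM wells and -1.34 in vehicle wells, a time difference of 0.63 ± 0.10 (adjusted p = 6.3e-05).

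**Figure D4:**
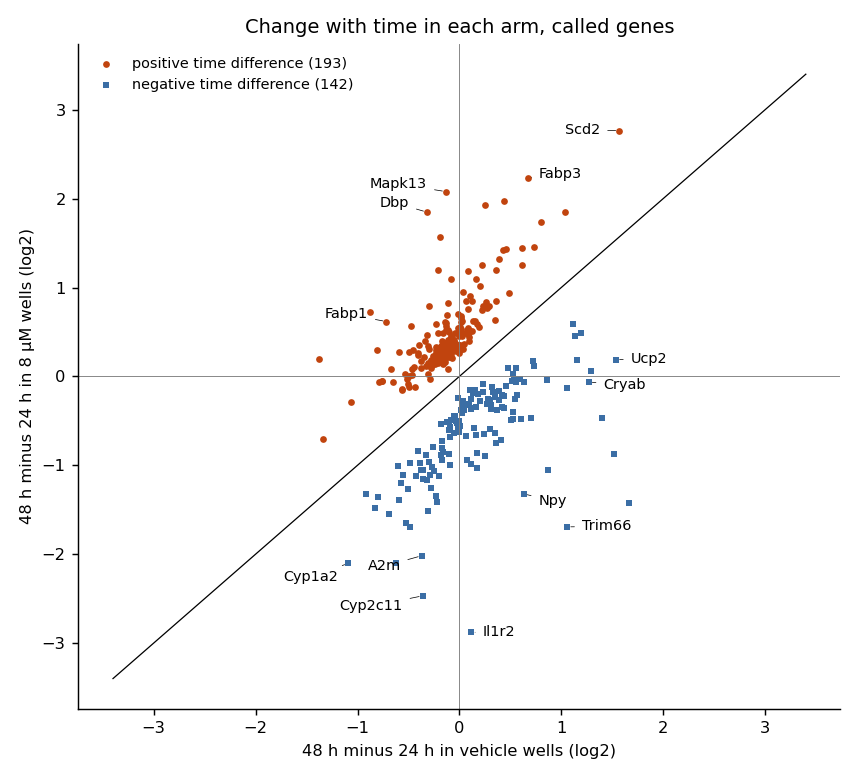
Change between 48 h and 24 h in 8 µM wells (vertical axis) against that in vehicle wells (horizontal axis), as log2 differences, for the 335 called genes. Circles mark the 193 genes with a positive and squares the 142 with a negative time difference, and the line marks equal change. Il1r2, Cyp2c11 and A2m moved mainly in the 8 µM wells, whereas Ucp2 and Cryab lie near 0 on the vertical axis.

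The last comparison asks whether time changed the transcripts alike at 8 µM and at 200 µM. The effect of each dose is measured against the same vehicle wells, so the time differences of both doses share their controls and are given side by side only. For 200 µM 150 genes had a positive and 128 a negative time difference (1.30% and 1.11%, 2.41% in all). Leaving out array number 22 gave 220 and 268 (1.91% and 2.32%, 4.23% in all), and over all settings 20 to 275 positive and 8 to 298 negative, with the fewest after median centring. At 8 µM and 200 µM it was 1.33 and 1.41 for Fabp1, 1.10 and 0.69 for Abhd5, 1.20 and 1.25 for Scd2, -0.62 and -0.69 for Cyp4a1, -1.65 and -1.80 for A2m, -2.998 and -2.42 for Il1r2, and 2.17 and 1.53 for Dbp. A test free of the vehicle wells is the change between the times in 8 µM wells minus that in 200 µM wells. It was called for 9 genes (0.0780%), 2 positive (0.0173%) and 7 negative (0.0606%), in limma's fit. Without array number 22 it was called for 20 (0.173%), 8 positive (0.0693%) and 12 negative (0.104%), although that array enters the contrast only through the estimate of spread.

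The difference between doses was largest for Sdf2l1, an ER chaperone partner, at -1.27 ± 0.14 (adjusted p = 5.4e-06). Its signals were 1886, 2096, 1896, 2260 and 1984 in 48 h 8 µM wells and 2716, 3250, 3152, 3127 and 3474 in 24 h 8 µM wells. In 200 µM wells they were 5829, 5280, 5663, 7010 and 9207 at 48 h and 3887, 4436, 4336, 3526 and 4574 at 24 h. So Sdf2l1 was lower at 48 h at 8 µM and higher at 48 h at 200 µM, with no overlap at either dose. Calr (-0.55 ± 0.10), Pdia3 (-0.50 ± 0.09) and Dnajc3 (-0.42 ± 0.09), which also serve protein folding in the ER, were called in the same direction. Their 8 µM time differences were not called (-0.15, -0.13 and 0.21), while those at 200 µM were (0.41, 0.37 and 0.63). Cyp2c11 (-1.05 ± 0.21), Cyp2c6v1 (-0.62 ± 0.11) and Aqp9 (-0.74 ± 0.14) also had a lower value, that is, a larger fall with time at 8 µM than at 200 µM. For Cyp2c11 the 200 µM wells had 3950, 3613, 4714, 5607 and 6541 at 48 h and 12766, 12014, 13023, 14389 and 11671 at 24 h, so that its fall was seen at both doses. The positive genes were Afm (0.62 ± 0.10), whose time difference was 0.63 at 8 µM and 0.02 at 200 µM, and Csad, a taurine synthesis enzyme (0.51 ± 0.09).

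**Figure D5:**
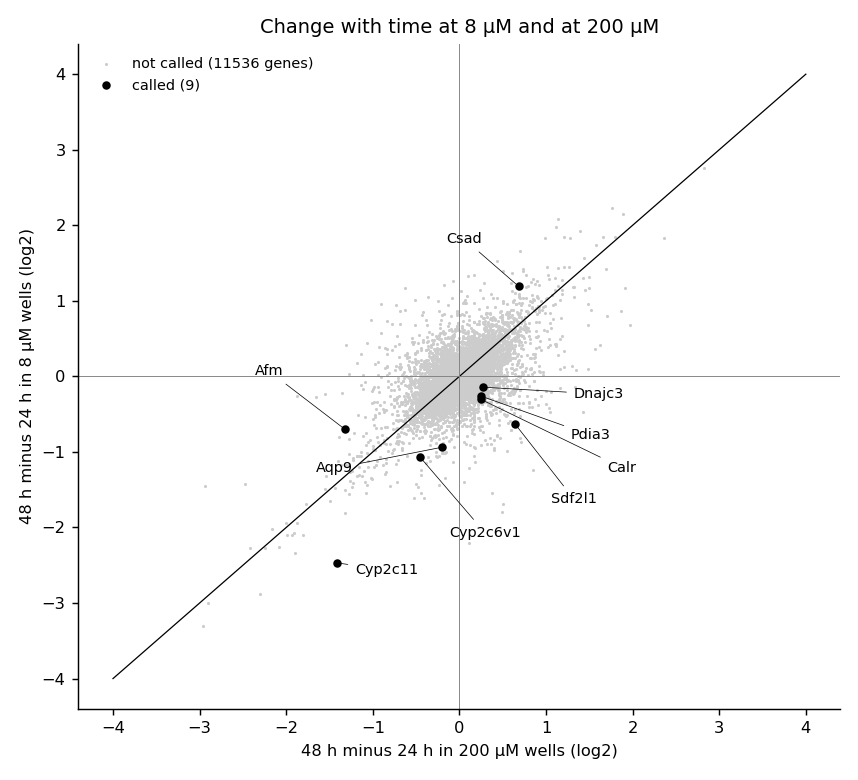
Change between 48 h and 24 h in 8 µM wells (vertical axis) against that in 200 µM wells (horizontal axis), as log2 differences, for 11545 genes. Black points mark the 9 genes whose changes differed between the doses, and the line marks equal change. Afm and Csad lie above the line, and the 7 others, Sdf2l1 furthest, below it.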

How the data were processed

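RNA of each well was hybridised to 1 array. The authors deposited MAS5 signals, linear intensity values with a trimmed mean near 1500.5 on every array, per the submitters' processing notes and the values themselves, and no version is given in the sources used here. Probe sets were kept above a signal of 281 (the 40th percentile) on at least 5 of 30 arrays (21282 of 31099), and each gene was represented by its probe set of highest mean, named from a 2016 platform annotation. Log2 values with a pseudocount of 16 were fitted over all 30 arrays with limma 3.58.1 (R 4.3.3, lmFit and eBayes with a variance trend), and p-values were adjusted over 11545 genes. The code was tested on simulated data. Named were the 15 largest called time differences of each sign that also passed without array number 22, the top 3 of each of 35 lists, the 10 largest rises and 5 largest falls at 24 h, and further genes after their values were seen. The members, lists and comparisons were chosen with earlier results of these data known. Replicate numbers follow the deposit order and pair nothing. The number of arrays limits the precision.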

Additional observations from a re-analysis of the deposited data

Results flagged for a closer look

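The effect of 8 µM differed between 48 h and 24 h for 193 genes upwards and 142 downwards, by the test of the difference itself.

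Array number 22 lay far from the other 48 h vehicle wells. Its gap to the nearest well, as a share of the group's range, was 0.932 for the median signal, 0.888 for the percentage of probe sets above the filter and 0.986 for the correlation with its group. The limit for 5 wells is 0.71, and chance passes it in about 1 of 20 groups. Of 88 groups of wells over 22 genes 6 passed it, 4 of them through array number 22 as the lowest 48 h vehicle well, with a share of 0.733 for Txnip, 0.758 for A2m, 0.737 for Il1r2 and 0.847 for Cryab. Without it their time differences were -0.65, -1.74, -3.15 and -1.47 in that order, each further from 0 than with it. The other 2 were the fifth 24 h 8 µM well of Fabp1, the highest, at 0.711, and the first 24 h 8 µM well of Npy, the highest, at 0.749.

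The change between the times differed between the doses for 9 genes. As the change in 8 µM wells minus that in 200 µM wells (log2) it was 0.62 for Afm, 0.51 for Csad, -0.74 for Aqp9, -0.55 for Calr, -1.05 for Cyp2c11, -0.62 for Cyp2c6v1, -0.42 for Dnajc3, -0.50 for Pdia3 and -1.27 for Sdf2l1.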

How the results depend on the processing

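Of the 35 other settings, the number of positive time differences (193) changed by over 1.5 times with median centring (34), with only the 20 arrays compared (108), and without array number 22 combined with quantile normalization (313) or with the array run, a run holding 1 array of each group, as a block (293, chosen after seeing the data). The number of negative ones (142) was 272 with quantile normalization, 8 with median centring and 314 with array weights. Without array number 22 it was 364 with quantile normalization, 217 with median centring, 250 with the 20 arrays compared and 329 with the run as a block (both chosen after seeing the data). Leaving out 1 array at a time gave 138 to 270 positive and 112 to 312 negative calls, and 270 and 312 are those without array number 22. For the change at 8 µM minus that at 200 µM, the 7 negative calls became 17 with quantile normalization, 1 with median centring, 4 with no variance trend and 14 with array weights, and without array number 22 19 with quantile normalization and 14 with the run as a block. Its 2 positive calls became 4, 0 and 9 with quantile normalization, median centring and array weights, and without array number 22 10, 6 and 9 with quantile normalization, median centring and the run as a block. Leaving out 1 array gave 3 to 12 negative (12 without array number 22, 3 without the fifth 24 h 8 µM well) and 2 to 8 positive calls. Hadha reversed to -0.17 (adjusted p = 0.54) with the mean of its probe sets. The causes were not tested. Of 138 called genes looked at singly, 98 kept the call without each single array. Of 52 other probe sets of such genes 13 passed in the same direction, 0 in the opposite one and 39 did not pass. The only block fitted was the array run, 6 consecutive array numbers, so each of the 5 runs holds the same arrays as 1 replicate number. No label names a run or a pairing, and both numbers only follow the deposit order. With all arrays the run as a block gave 214 positive and 156 negative calls. It ended those of Pla2g4b, Rnf128 and Vldlr among the genes looked at (adjusted p = 0.060, 0.066 and 0.061). After median centring the effect itself was called up for 787 and down for 675 genes at 24 h and down for 766 at 48 h. Vehicle signals near the array's floor (Acot1, Fabp3, Ucp2) limit the size of the largest effects.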

Other observations

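Cholesterol synthesis, not described above, had a list median of 0.27 over 17 measured genes (0.18 without array number 22), against -0.01 over all genes. Of these, 13 were up and 1 down at 48 h, and 9 up and 2 down at 24 h, while 2 had a called time difference, the cyclase Lss and the desaturase Sc5d, both positive. Over all genes 16.7% were up and 18.9% down at 48 h, and 11.1% up and 13.8% down at 24 h. Time differences were called positive for 1.67% of all genes and negative for 1.23%. Among 28 genes of respiration (electron transport and the citrate cycle) 14 were up at 48 h and 8 at 24 h, with 2 positive time differences, Sdha and Uqcrc2, and the call of Uqcrc2 ended with any 1 of 13 arrays left out (limma, adjusted p up to 0.079). In amino acid breakdown and the urea cycle 16 of 29 genes were down at 48 h and 19 at 24 h, with 1 negative time difference, that of Gnmt, which ended with any 1 of 15 arrays left out (adjusted p up to 0.078). Interferon response genes gave 0 called time differences among 18 at an adjusted p under 0.05 in limma's fit, beside 2.90% of all genes. Among the 18, 4 were negative and 0 positive at an unadjusted p under 0.05, beside 800 and 879 of 11545 genes. The effect itself was down for 7 at 48 h and for 2 at 24 h, beside 18.9% and 13.8% of all genes.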
